A study of Homo sapiens with 16 samples.

Results

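In LoVo cells held in early S phase, 963 of the 5928 listed KLF5 peaks overlapped a MYC peak by at least 1 bp and no peak of HNF4A, RAD21 or CTCF. These KLF5-MYC pair sites, 16.2% of the KLF5 list, are followed here into M phase. They were chosen by the S-phase peak lists of the 5 proteins, so the presence of KLF5 and MYC and the absence of the other proteins in S phase are not findings. The rule did not use the M-phase lists, but it was set with earlier results of these data known.

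The study sequenced DNA bound by transcription factors, RAD21 and CTCF after chromatin immunoprecipitation (ChIP-seq). The cells were LoVo, an established human colon adenocarcinoma line. M-phase cells had spent 12 h in 2 mM thymidine and then 8 h in 200 ng/ml nocodazole, which blocks spindle assembly. S-phase cells had gone through 12 h in 2 mM thymidine and 8 h without it, and were harvested after a further 12 h block. The series' design text speaks of siRNA, non-targeting or directed at RAD21. None of the sample labels here names an siRNA or a genetic change. Each target had 1 library per phase, and rabbit IgG of the same phase was the control for KLF5, MYC, HNF4A, RAD21 and histone H3, goat IgG for CTCF. A difference between phases therefore has no replicate check. Intervals below are 95% intervals over sites that cover counting error only, and no p-value is given.

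KLF5 is a factor of dividing intestinal epithelial cells that binds GC-rich boxes through zinc fingers. MYC binds E-boxes as a dimer with MAX and drives growth and ribosome production. HNF4A is a nuclear receptor of gut and liver epithelium, RAD21 a subunit of the cohesin ring, and CTCF a protein that halts cohesin at its own binding sites. During mitosis chromosomes condense and most transcription stops, and factors differ in how much of their binding is still detected on mitotic chromosomes.

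The KLF5 and MYC peaks of a pair site mostly lay on top of each other. The median KLF5 peak was 1294 bp wide (quartiles 1038.5 and 1582 bp) and held 26 tags, with a range of 12 to 142. A tag is an aligned read kept by the peak caller, and counts per peak are not scaled to the library. The strongest MYC partner of each site had a median width of 1438 bp and 33 tags, with a range of 11 to 218. The stretch shared by the peaks had a median of 1084 bp, which covered a median of 99.4% of the narrower peak. The summits, the points of highest tag density, were a median of 139 bp apart (quartiles 48 and 425 bp) and lay within 200 bp of each other at 568 sites (59.0%). At 942 sites there was 1 MYC partner and at 21 there were 2, and the partners came to 978 separate MYC peaks.

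The rule excludes an overlap with the other proteins but not their neighbourhood. The nearest S-phase HNF4A, RAD21 or CTCF peak was a median of 9742 bp away, and 485 sites (50.4%) had one within 10000 bp. Within 1000 bp there was such a peak at 120 sites (12.5%). By median gap HNF4A was the more distant, with 31049 bp, against 14362 bp to RAD21 or CTCF. The S-phase lists held 15437 HNF4A, 27122 RAD21 and 28474 CTCF peaks, and the part of list length in these gaps was not tested. Within 1000 bp the order was the other way, with HNF4A at 70 sites (7.27%) and RAD21 or CTCF at 58 (6.02%). Just inside the rule were sites on chromosome 3 from 157071698 to 157072691, 10 bp from a CTCF peak, and on chromosome 17 from 2443642 to 2445136, 16 bp from one. Just outside it was a KLF5-MYC peak on chromosome 16 from 65286970 to 65287769, which shared 4 bp with a CTCF peak. Neither factor was found in M phase at these 3 sites. Of the 978 MYC partners, 43 touched an HNF4A, RAD21 or CTCF peak outside the KLF5 peak.

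At most pair sites neither factor was listed in M phase, and where a factor was, it was more often MYC than KLF5. A factor was counted as found when an M-phase peak of it overlapped its own S-phase peak by at least 1 bp. Both were found at 15 of the 963 sites (1.56%, interval 0.874 to 2.56%), KLF5 alone at 62 (6.44%, 4.97 to 8.18%), MYC alone at 122 (12.7%, 10.6 to 14.9%) and neither at 764 (79.3%, 76.6 to 81.9%). KLF5 was thus found at 77 sites (8.00%, 6.36 to 9.89%), against 11.4% of all S-phase KLF5 peaks. The difference from the other 4965 KLF5 peaks was -4.07 points (-5.88 to -1.99), and -1.963 points (-3.76 to -0.162) once standardised over 10 equal groups of S-phase score. MYC was found at 137 sites (14.2%, 12.1 to 16.6%), close to the 12.6% of all S-phase MYC peaks. The paired difference, KLF5 minus MYC, was -6.23 percentage points (Newcombe interval -8.99 to -3.49). Of the 184 sites with 1 factor in M phase, MYC was the one at 66.3% (59.0 to 73.1%). S-phase scores of the factors were unlike, with a median of 76.1 for KLF5 and 133 for the MYC partners. The contrast between the factors was not standardised for score. Among the 100 sites of highest KLF5 score its order turned, with KLF5 found at 28% and MYC at 15%. Among the 100 of highest MYC score the shares were 8% and 52%.

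The M-phase libraries of the factors were not alike, and how this bears on the difference was not tested. The KLF5 library held 7362169 filtered tags and a redundant rate of 0.44, and the MYC library 15344922 tags and a rate of 0.28. Their S-phase libraries held 10345059 and 9282892 filtered tags. Their lists were of similar length, 2118 KLF5 and 1974 MYC peaks. Counting only the 1000 peaks of highest score in each list, KLF5 was found at 4.67% and MYC at 8.62% of pair sites. The order turned when M-phase peaks needed a false discovery rate (FDR) under 5% in the deposited files: KLF5 was then found at 23 sites (2.39%) and MYC at 8 (0.831%), a difference of 1.56 points (0.424 to 2.80). Of the 137 sites with MYC, 92 had an M-phase MYC peak with a deposited FDR of 100%, and of the 77 sites with KLF5, 0 had such a KLF5 peak. The matching shares of the whole M-phase lists are not given, so these counts cannot be called particular to pair sites. The labels call each list's length a number of peaks with an FDR under 5%, but in the M-phase files 396 of 2118 KLF5 peaks and 86 of 1974 MYC peaks met that limit. They also give 2118 as the peak number of the M-phase rabbit IgG library, and no number for M-phase KLF5. The header of the M-phase KLF5 list names the KLF5 library as its treatment and rabbit IgG as its control. Whether the label values or the libraries were exchanged is not stated, and all M-phase KLF5 values carry that limit.

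The absence of a factor was seldom a matter of a peak lying a little to the side. Of the 886 sites without KLF5 in M phase, 3 (0.339%) had an M-phase KLF5 peak within 1000 bp. Of the 826 sites without MYC, 10 (1.21%) had an M-phase MYC peak within that distance. Read in the same window for both factors, the union of the KLF5 and MYC S-phase peaks, the shares were 8.20% for KLF5 and 14.3% for MYC.

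Each factor was found in M phase mainly where its own S-phase peak was strong, and its share differed little with the strength of its partner. The score of a peak is -10 times the log10 of the caller's p-value, so the cutoff lies at 50. The sites were divided into 3 equal groups of 321 by S-phase KLF5 score. KLF5 was found at 2.80% of the weakest, 5.61% of the middle and 15.6% of the strongest group. MYC was found at 13.1%, 13.1% and 16.5% of the same groups. Divided by the score of the MYC partner instead, MYC was found at 1.25% of the weakest, 8.10% of the middle and 33.3% of the strongest group (28.2 to 38.8%). KLF5 was found at 7.48%, 8.41% and 8.10% of these groups, whose intervals overlap throughout.

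**Figure D1:**
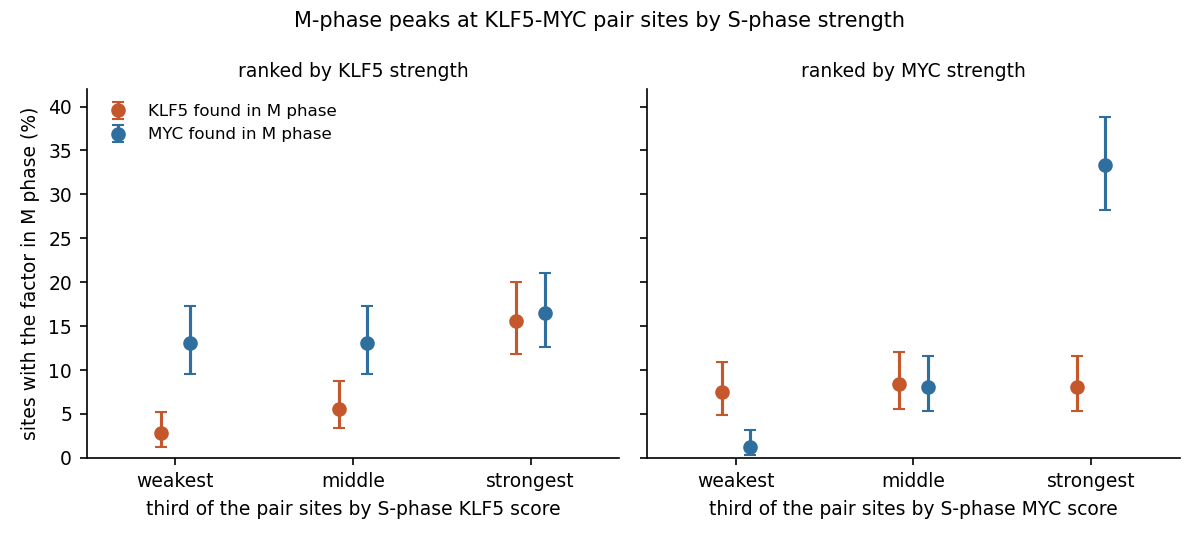
Share of pair sites with an M-phase peak of KLF5 or MYC (vertical axis, percent) in 3 equal groups of 321 sites ordered by S-phase KLF5 score (left) or MYC score (right). Points are shares and bars exact 95% intervals over sites. In the strongest group KLF5 reaches 15.6% on the left and 8.10% on the right, and MYC 16.5% on the left and 33.3% on the right.

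The same held at the extremes. Among the 100 sites of highest KLF5 score, KLF5 was found at 28 (28%, 19.5 to 37.9%) and MYC at 15. Among the 100 of highest MYC score, KLF5 was found at 8 (8%, 3.52 to 15.2%) and MYC at 52 (52%, 41.8 to 62.1%). Sites where both were found had a median S-phase KLF5 score of 122 and MYC score of 291. The medians were 128 and 118 where KLF5 alone was found, 80.6 and 340 where MYC alone was found, and 72.6 and 118 where neither was. The MYC partners of sites with KLF5 alone were thus no stronger by score than those of sites with neither, and the KLF5 peaks at sites with MYC alone were little stronger.

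**Figure D2:**
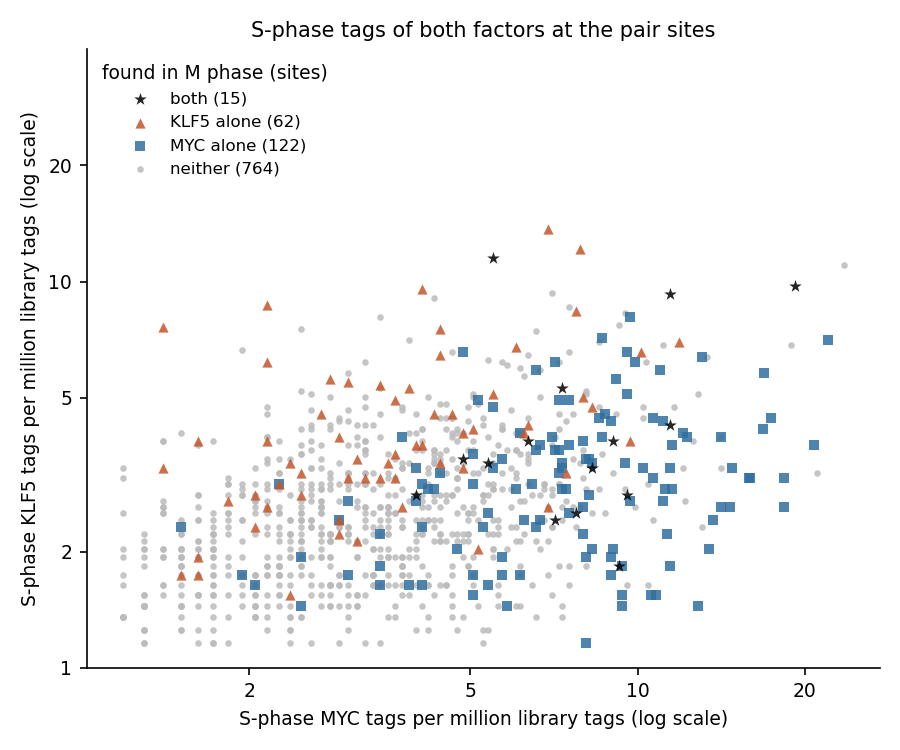
S-phase KLF5 tags (vertical) against S-phase MYC tags (horizontal) at the 963 pair sites, both per 1000000 filtered library tags on log axes, with 1 symbol per site by the factors found in M phase. The 62 sites with KLF5 alone lie toward the top, the 122 with MYC alone toward the right, and the 764 with neither mostly at low tags of both.

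The factors were found together at few sites, and a link between them could not be told from counting error. MYC was found at 15 of the 77 sites with KLF5 in M phase (19.5%, 11.3 to 30.1%) and at 122 of the 886 without (13.8%, 11.6 to 16.2%). The difference was 5.71 points (-1.99 to 16.1). At all 15 joint sites the M-phase peaks of the factors overlapped, with summits a median of 222 bp apart in M phase and 146 bp in S phase. How close the S-phase summits lay made no detectable difference. KLF5 was found at 7.57% of sites with summits within 200 bp and at 8.61% of the others, a difference of -1.04 points (-4.74 to 2.40). For MYC the shares were 12.9% and 16.2%, a difference of -3.35 points (-8.03 to 1.12). Sites within 10000 bp of an S-phase HNF4A, RAD21 or CTCF peak had KLF5 in 8.04% and MYC in 15.9% of cases, and more distant sites in 7.95% and 12.6%. Both of those differences had intervals that include 0.

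Scaled to library size, M-phase peaks at pair sites mostly held fewer tags than the S-phase peaks there, and their median width was smaller. At the 77 sites with KLF5 found, the M-phase peak held a median of 1.90 tags per 1000000 filtered library tags over 797 bp, against 3.77 over 1444 bp in S phase. The value was lower in M phase at 75 of these sites, and the median ratio of M to S phase was 0.511. At the 137 sites with MYC found, the medians were 1.82 tags per 1000000 over 1120 bp in M phase and 7.76 over 1941 bp in S phase. The value was lower in M phase at all 137 sites, with a median ratio of 0.257. Widths were called separately in each list, so these sums move with the called width, and only sites with an M-phase peak enter them. The summit moved by a median of 144 bp between the phases for KLF5 and 104 bp for MYC. The M-phase KLF5 peaks at pair sites ranked between 4 and 2034 by score among the 2118 of their list, with a median of 836. The MYC peaks ranked between 13 and 1956 among 1974, with a median of 763.

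**Figure D3:**
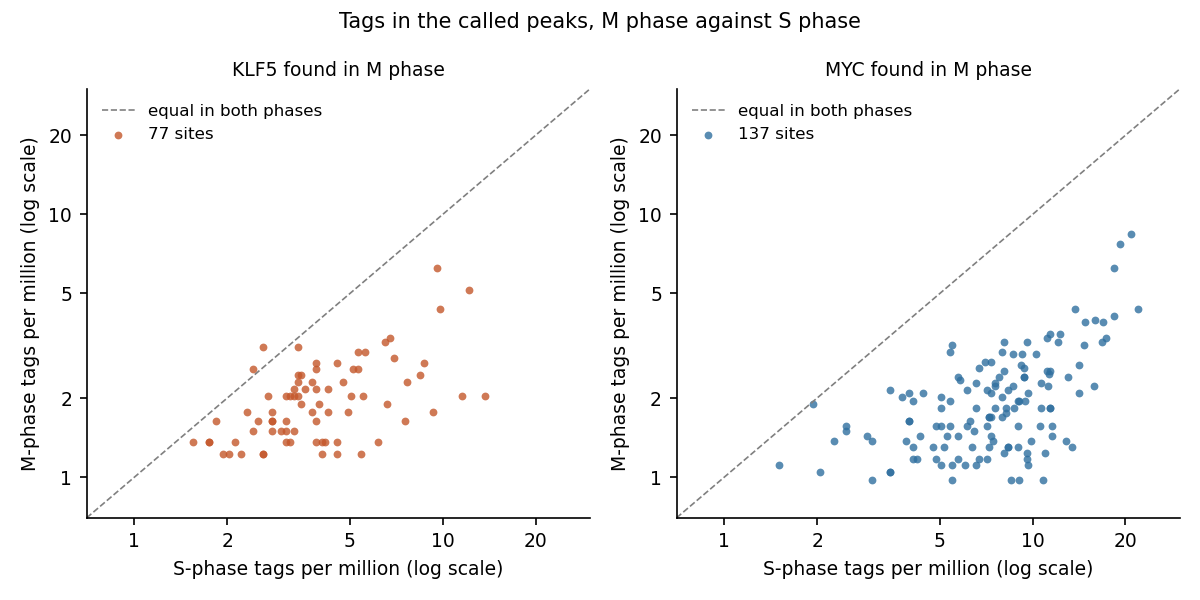
Tags per 1000000 filtered library tags in the M-phase peak (vertical) against the S-phase peak (horizontal) on log axes, for the 77 sites with KLF5 found (left) and the 137 with MYC found (right). The dashed line marks equal values: 75 of the KLF5 points and all MYC points lie below it.

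Within each M-phase outcome, the sites named are among the 6 of highest S-phase KLF5 fold enrichment, the deposited ratio of tags to the modelled background of the control. Their strong S-phase KLF5 peaks therefore come from the choice. Positions are in the human build hg18, whose genes were not annotated here. Tags at single sites are raw counts, and the M over S ratio of filtered library tags was 0.712 for KLF5 and 1.65 for MYC. The following sites had both factors in M phase. On chromosome 12 from 131914040 to 131916652, KLF5 held 15 tags in M phase and 119 in S phase, where it reached 36.83-fold, the highest of all pair sites. MYC there held 17 tags in M phase and 51 in S phase. On chromosome 15 from 64583113 to 64585421, KLF5 had 32 tags in M phase and 101 in S phase. MYC had 118 tags in M phase and 178 in S phase, and this was the only one of the 6 named joint sites whose M-phase MYC peak had an FDR under 5% (4.48%). On chromosome 11 from 117811307 to 117812578, KLF5 had 16 tags in M phase and 40 in S phase, and MYC 15 and 84. On chromosome 14 from 103407369 to 103408695, KLF5 had 19 and 40 tags in M and S phase and MYC 20 and 59. A site on chromosome 2 from 242471560 to 242473010 had 14 and 36 KLF5 tags and 24 and 45 MYC tags in M and S phase. At the site on chromosome 17 from 73821375 to 73824698, the M-phase KLF5 peak of highest score, from 73824632 to 73825441, only touched the end of the S-phase one. KLF5 was also found at this site when M-phase and S-phase summits had to lie within 200 bp. That match rests on another M-phase KLF5 peak, whose values are not given. M-phase RAD21 and CTCF peaks were listed there too, and the S-phase summits of KLF5 and MYC were 2996 bp apart.

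Among the sites with KLF5 but not MYC in M phase, the size of the S-phase MYC partner varied widely. On chromosome 1 from 32940931 to 32942269, KLF5 had 17 tags in M phase and 79 at 26.96-fold in S phase, beside 13 S-phase MYC tags at 7.04-fold. On chromosome 11 from 68900423 to 68902141, it had 20 tags in M phase and 90 at 24.46-fold in S phase, beside 20 MYC tags. The M-phase KLF5 peak of highest fold enrichment at any pair site, 30.22-fold, was on chromosome 12 between 368205 and 369390. With 46 tags it stood against 99 in the S-phase peak from 367858 to 369439, whose MYC partner held 38. The site on chromosome 2 from 9479828 to 9481623 differed in that its S-phase MYC partner was large, with 94 tags. KLF5 there had 14 tags in M phase, with an FDR of 23.29%, and 68 tags in S phase. The site on chromosome 19 from 50149534 to 50150936 had the smallest M-phase KLF5 peak of the named ones, with 9 tags, against 47 in S phase.

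Of the 6 named sites with MYC but not KLF5 in M phase, 4 had S-phase MYC partners of 60 to 121 tags. On chromosome 5 from 137938286 to 137939761, MYC had 52 tags in M phase and 103 at 38.22-fold in S phase, beside 45 S-phase KLF5 tags at 15.15-fold. On chromosome 16 from 55321127 to 55322381, MYC had 26 tags in M phase and 74 at 34.64-fold in S phase. On chromosome 17 from 17050267 to 17051456, it had 23 tags in M phase and 60 at 34.5-fold in S phase, and an S-phase HNF4A peak lay 238 bp from the KLF5 peak. The site on chromosome 12 from 47944114 to 47946143 had 37 MYC tags in M phase and 121 in S phase. The first of this class by KLF5 fold enrichment, on chromosome 20 from 51657983 to 51659349, met the definition by the margin only. Its M-phase MYC peak began at 51659389, beyond the KLF5 peak and at the last bases of the S-phase MYC peak, which ended at 51659390. None of the 6 sites had an M-phase MYC peak with an FDR under 5%. The deposited FDR was 11.54% at the chromosome 5 site, 25.54% at the chromosome 12 site and 100% at the rest.

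A strong S-phase KLF5 peak did not ensure an M-phase one. On chromosome 16 from 1902729 to 1904520, neither factor was listed in M phase, although S-phase KLF5 reached 27.87-fold with 69 tags, beside 18 MYC tags. The same was true on chromosome 11 from 77576375 to 77578176, with 84 KLF5 and 32 MYC tags in S phase, and on chromosome 19 from 4131726 to 4134192, with 60 and 28. On chromosome 22 from 49293349 to 49294233, 32 KLF5 tags at 22.4-fold and 17 MYC tags were listed in S phase alone, and S-phase peaks of HNF4A and of RAD21 or CTCF lay 360 and 259 bp away.

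Compared with other KLF5 peaks, pair sites had KLF5 in M phase less often than the classes with HNF4A. KLF5 was found at 8.00% of pair sites and at 5.26% of the 931 S-phase KLF5 peaks with none of the other 4 proteins (3.92 to 6.90%), a difference of 2.73 points (0.485 to 5.00). The KLF5-only peaks were weaker, with a median S-phase score of 63.3 against 76.1 at pair sites. Standardised over 10 equal groups of KLF5 score, the difference was 0.0792 points (-2.07 to 2.23). With scores of at least 100 required in both phases it was -2.08 points (-5.73 to 1.45), an interval that includes 0. Where HNF4A was the partner in place of MYC, at 539 sites without RAD21 or CTCF, KLF5 was found at 15.4% (12.5 to 18.7%), so that pair sites lay 7.40 points below (difference -7.40, -11.0 to -4.03). The median score of these sites, 71.6, was not higher than that of the pair sites, and the standardised difference was -7.80 points (-11.1 to -4.48). At the 1263 sites with KLF5, MYC and HNF4A but no RAD21 or CTCF, KLF5 was found at 15.8% (13.8 to 17.9%). Pair sites differed from these by -7.76 points (-10.4 to -5.08), and by -2.58 points (-4.88 to -0.276) once standardised. The 587 KLF5-MYC sites with RAD21 or CTCF and without HNF4A gave 7.50%, a difference of 0.5001 points (-2.37 to 3.15).

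The share of MYC partners found in M phase lay above that of MYC-only peaks, but not at equal score. Of the 978 MYC partners, 14.1% were found in M phase (12.0 to 16.5%), against 11.0% of the 3453 MYC peaks with none of the other 4 proteins (9.95 to 12.1%), a difference of 3.13 points (0.822 to 5.66). The partners were stronger by score (median 132, against 89.5 in MYC-only peaks). The difference turned to -3.39 points (-5.77 to -1.02) after standardisation. With scores of at least 100 required in both phases it was -0.929 points (-3.91 to 3.48), an interval that includes 0. Against the remaining 10963 MYC peaks together, the difference was 1.69 points (-0.450 to 4.09). Against the 1250 MYC peaks with KLF5 and HNF4A but no RAD21 or CTCF it was -3.33 points (-6.33 to -0.263), and 0.418 points (-2.09 to 2.93) once standardised. Where KLF5, MYC and HNF4A met without RAD21 or CTCF, the paired difference between the factors, KLF5 minus MYC, was -1.82 points (-4.62 to 0.974). Pair sites minus these gave -4.41 points (-8.34 to -0.495). At the KLF5-MYC sites with RAD21 or CTCF and without HNF4A it was -8.52 points (-12.2 to -4.88), and pair sites minus these gave 2.29 points (-2.29 to 6.87). At sites with all 3 factors and RAD21 or CTCF it was -2.91 points, and pair sites minus these gave -3.32 points (-7.33 to 0.673). An excess of MYC over KLF5 was thus not particular to pair sites.

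**Figure D4:**
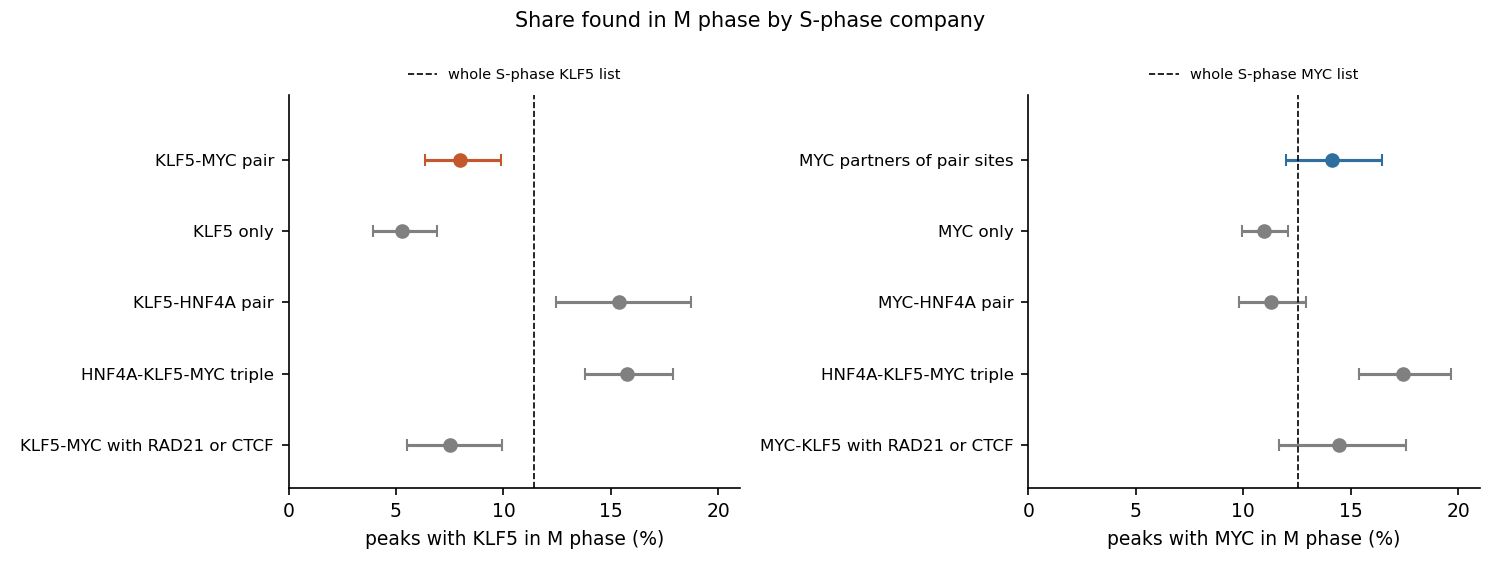
Share of S-phase KLF5 peaks (left) and MYC peaks (right) with an M-phase peak of the same factor (horizontal axis, percent), by the other proteins listed with them in S phase. Points are shares, bars exact 95% intervals over peaks, coloured points the pair sites or their MYC partners, and dashed lines the whole lists. KLF5 lies at 8.00% at pair sites, at 15.4% with HNF4A alone and at 15.8% with MYC and HNF4A.

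M-phase MYC was rare at KLF5-only peaks, and M-phase KLF5 at MYC-only peaks. An M-phase MYC peak touched the KLF5 peak at 131 pair sites, but at only 9 of the 931 KLF5-only sites (0.967%), a difference of 12.6 points (10.4 to 14.99). An M-phase KLF5 peak touched 77 of the 978 MYC partners (7.87%), but 28 of the 3453 MYC-only peaks (0.811%), a difference of 7.06 points (5.49 to 8.94). These classes were chosen by the absence of the other factor in S phase, and pair sites by its presence. The differences are therefore not independent of the choice, and the matching shares over the whole lists are not given. HNF4A, excluded by the rule in S phase, had an M-phase peak at 2 pair sites (0.208%, 0.0252 to 0.748%), against 8.13% of all S-phase KLF5 peaks, a list that includes peaks with S-phase HNF4A. An M-phase H3 peak, the chromatin control, lay at 1 pair site (0.104%), against 0.0337% of the KLF5 list.

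RAD21 and CTCF, both excluded in S phase, were listed in M phase at a minority of pair sites. RAD21 was present at 47 (4.88%, 3.61 to 6.44%) and CTCF at 66 (6.85%, 5.34 to 8.64%), with both at 8. Over the whole KLF5 list, which includes sites with RAD21 or CTCF in S phase, the shares were 19.8% and 23%. These M-phase peaks were weak, with median scores of 63.7 for RAD21 and 75.6 for CTCF, against 129 and 120 in their full lists. Of the 47 RAD21 peaks 5, and of the 68 CTCF peaks 10, had an FDR under 5%. In the full M-phase lists, 14307 of 22966 RAD21 peaks and 8917 of 24391 CTCF peaks met that limit. Few lay next to an S-phase site: 4 of the 47 and 4 of the 66 pair sites had an S-phase peak of that protein within 1000 bp. The M-phase libraries of RAD21 and CTCF were deeper than the S-phase ones, by 2.19 and 1.89 times in filtered tags, and the part of depth in these counts was not tested.

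Pair sites with M-phase RAD21 or CTCF, 105 in all, were also found with MYC more often. MYC was found at 25 of them (23.8%, 16.04 to 33.1%) and at 112 of the other 858 sites (13.1%, 10.9 to 15.5%), a difference of 10.8 points (3.23 to 19.98). Their MYC partners had a median score of 157, against 129 at the others, and the difference standardised for MYC score was 6.39 points (-1.44 to 14.2). For KLF5 the shares were 8.57% and 7.93%, a difference of 0.646 points (-3.82 to 7.76). RAD21 or CTCF in M phase was seen at 105 pair sites (10.9%), 5.32 points above the KLF5-only sites (2.85 to 7.81) and 6.44 points below the sites with KLF5, MYC and HNF4A (difference -6.44, -9.28 to -3.53). Median KLF5 peak widths rose in the same order, from 1101 bp at KLF5-only sites to 1294 and 1455 bp. Median scores were 63.3, 76.1 and 93.6. The differences between these classes were not standardised for width or score, whose part was not tested.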

How the data were processed

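The files are 12 lists of ChIP-seq peaks, 1 for each target and phase. Per the submitters' processing notes, reads went through CASAVA 1.4, BWA (build hg18) and MACS 1.4. Per the file headers, MACS 1.4.0rc2 called peaks on merged alignments against IgG with a p-value cutoff of 1e-05, keeping 1 tag per position. Per the file headers, tags per peak are raw counts as deposited. The deposited score is -10 times the log10 p-value, the deposited fold enrichment a ratio over the modelled control, and the deposited FDR a percent.

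Lists were compared by overlap in Python 3.11.15 with numpy 2.4.6, pandas 2.3.3 and scipy 1.17.1. Intervals are exact (Clopper-Pearson) for shares and Newcombe's for differences, paired where both factors were read at the same sites. Differences between the 2 paired differences combine the intervals of both. Standardised differences compare shares within 10 equal groups of score, each group weighted by its smaller class, with normal intervals. With 2 MYC partners, the one of higher score describes the site. Where several M-phase peaks of a factor overlapped, the one of highest score does. Named sites are up to 6 per M-phase outcome, highest in S-phase KLF5 fold enrichment and away from H3 peaks, and a part of them is given. No filter on low values was applied. Overlap and standardisation were tested on simulated data from the 5928 KLF5 peaks: with 15 points put in, 14.9 were found on average over 20 draws. The simulated members were drawn without regard to score. Whether standardisation removes a difference in score between classes was therefore not tested. Filtered tags lay between 7362169 and 16813394 per ChIP library. The members and comparisons were chosen with earlier results of these data known. No hg18 genome or annotation was used, so no sequence or gene is given.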

Additional observations from a re-analysis of the deposited data

How the results depend on the processing

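Over 11 results and 12 alternatives, 88 of 114 recomputed values stayed within the interval of the reported one with the same sign. Comparisons with single S-phase classes, their alternatives, and the exclusion of partners that touch HNF4A, RAD21 or CTCF, were added after the data were seen. No replicate exists to leave out. Libraries could not be paired across replicates because each target has 1 library per phase, and the paired differences are paired over sites only. KLF5 was found at 4.36% and MYC at 10.1% of pair sites with 50% of each peak shared, at 4.88% and 10.1% with summits within 200 bp, at 4.67% and 8.62% with the 1000 strongest M-phase peaks, at 1.961% and 6.86% with scores of at least 100 (204 sites), and at 2.39% and 0.831% with an M-phase FDR under 5%. That FDR limit turned KLF5 minus MYC to 1.56 points and took the MYC share of sites with 1 factor to 25.8% (77.8% with scores of at least 100). It also moved KLF5 at pair sites minus KLF5-HNF4A sites to -3.18 points and MYC partners minus MYC-only peaks to 0.152. Standardised for score, the difference from all other peaks was -1.963 points for KLF5 (reported -4.07) and -0.361 for MYC (reported 1.69). For KLF5 it was -2.58 against sites with MYC and HNF4A and 0.0792 against KLF5-only sites. For MYC it was 0.418 and -3.39 against the matching classes. With scores of at least 100 in both phases, these 4 values were -4.88, -2.08, 0.0818 and -0.929 points. All but the first had intervals that include 0. With 50% of each peak shared, KLF5 at pair sites minus sites with MYC and HNF4A was -3.48 points. The cause of these changes was not tested. The windows common to both factors give no value for comparisons with peaks that lack a partner. The M-phase KLF5 library had the fewest filtered tags of the ChIP libraries, and the part of depth in the KLF5 shares was not tested.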

Other observations

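Seen from M phase, 71 of the 2118 M-phase KLF5 peaks overlapped an M-phase MYC peak and no M-phase HNF4A, RAD21 or CTCF peak. Of these mitotic pairs, 12 overlapped one of the 963 S-phase pair sites. S-phase KLF5 and MYC were both present at 53 of the 71, and an S-phase HNF4A peak at 42. MYC without KLF5 had been listed in S phase at 9, KLF5 without MYC at 4, and neither at 5. Matching shares over all 2118 M-phase KLF5 peaks are not given, so these counts cannot be called particular to the mitotic pairs. An H3 peak of either phase touched 1.

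The 963 pair sites lay on chromosomes 1 to 22 and X. They made up between 8.17% of the KLF5 peaks of chromosome 15 and 29.3% of those of chromosome X, which had only 41 KLF5 peaks. Chromosomes 1, 19 and 17 held the most, with 89, 83 and 68. On chromosome 16, none of the 60 pair sites had KLF5 found in M phase and 5 had MYC found. On chromosome 15, 3 of 21 sites had KLF5 and 10 had MYC. Over all 963 pair sites, 77 had KLF5 and 137 had MYC. Shares of the whole KLF5 and MYC lists found on single chromosomes are not given. Chromosomes were compared after their values had been seen, and no difference between them was tested.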
